A study of Bos taurus with 15 samples.

Results

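The transcripts of the nuclear-encoded subunits of oxidative phosphorylation were measured in cultured bovine granulosa cells, the follicle cells that surround the oocyte and produce oestradiol. The members are the transcript clusters, each a set of probes for 1 transcribed locus, whose only gene symbol starts with NDUFA, NDUFB, NDUFC, NDUFS or NDUFV and a number, SDH, UQCR, COX4 to COX8 or ATP5. The assembly factors named NDUFAF were left out, as were the genes NDUFA4 and NDUFA4L2. This gave 75 of 26773 clusters, for 74 genes: 32 of complex I, 3 of complex II, 7 of complex III, 15 of complex IV and 17 of complex V, with ATP5F1E measured by 2 clusters. The symbols also take in COX7A2L and ATP5IF1, a supercomplex factor and an inhibitor, which are not core subunits. Another 12 clusters pair such a symbol with other symbols and were left out, since their signal cannot be given to 1 gene.

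Granulosa cells of Bos taurus were aspirated from small to medium follicles of abattoir ovaries, frozen, thawed and plated on collagen in serum-free medium. All cultures received FSH, R3 IGF-1, insulin and androstenedione for 8 days. In addition, 5 samples received 30 mM sodium L-lactate, 5 received 30 mM NaCl as the vehicle control, which brings the same amount of sodium, and 5 were left untreated. The age and breed of the cows are not given in the sources used here, nor is it said that the replicates of a group came from separate cell pools. Each p-value is therefore set against a spread that may be technical. Total RNA was hybridized to Affymetrix Bovine Gene ST arrays, 1 per sample, and the values are the deposited log2 signals. Array medians lay between 4.52 and 4.60, and arrays of the same group correlated with r of 0.996 to 0.997 over all clusters.

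Oxidative phosphorylation takes place in the inner mitochondrial membrane. Complexes I and II pass electrons from NADH and succinate to ubiquinone, complex III passes them on to cytochrome c, and complex IV passes them to oxygen. Complexes I, III and IV pump protons, and complex V, the ATP synthase, makes ATP from the proton gradient. Lactate that enters a cell is oxidized to pyruvate by lactate dehydrogenase, which yields NADH, and pyruvate can feed the mitochondria. Most subunits are encoded in the nucleus. The subunits encoded in mitochondrial DNA were not analysed here.

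The subunit transcripts stayed close to each other in the 3 groups. None of the 75 clusters passed an adjusted p of 0.05 together with a 1.5-fold difference in any comparison (limma fit over all arrays, Benjamini-Hochberg adjustment over all clusters). Over all clusters, 1.89% passed both thresholds for L-lactate against NaCl, 3.27% for L-lactate against untreated and 1.15% for NaCl against untreated. The largest subunit differences were 1.28-fold for ATP5MC2 between L-lactate and NaCl, 1.35-fold for NDUFV3 between L-lactate and untreated, and 1.17-fold for COX7B between NaCl and untreated, the last with an adjusted p of 0.244. The COX7B value varied with single untreated arrays. Its log2 difference went from 0.23 to 0.12 without untreated replicate 4 (adjusted p = 0.471) and to 0.31 without untreated replicate 1 (adjusted p = 0.0843). The spread within the groups, which may be technical, set bounds on these values. The within-group SD of a subunit had a median of 0.049 on the log2 scale against 0.105 over all clusters and 0.0705 over those with a mean log2 signal of at least 5. The 95% interval of the difference lay inside 1.5-fold for 75 of 75 subunit clusters in each of the comparisons. Each interval was made for its cluster and comparison alone, without adjustment for the number of intervals. The outermost bounds were 1.35-fold, 1.44-fold and 1.38-fold.

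Smaller differences were present in both directions. A cluster is called higher or lower below when its adjusted p was under 0.05, with no fold threshold. For L-lactate against NaCl, 8 subunit clusters were higher and 8 lower, 10.7% of the members each way, where 10.7% of all clusters were higher and 11.5% lower. For L-lactate against untreated, 17 were higher and 9 lower, 22.7% and 12%, beside a background of 13.3% higher and 13.7% lower. For NaCl against untreated, 7 were higher and 0 lower, 9.33% and 0%, beside 6.13% higher and 5.81% lower over all clusters. At an unadjusted limma p under 0.05, 12 members were higher and 4 lower in this last comparison, and an unmoderated linear model of the 10 arrays with the same adjustment gave 8 and 0.

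Most subunits are bright, and bright clusters pass the test more often. Among the 11961 clusters with a mean log2 signal of at least 5, 20% were higher and 22.2% lower with L-lactate than with NaCl, and 24.5% and 24.6% against untreated. Of the 69 subunit clusters above this level, 11.6% were higher and 11.6% lower with L-lactate than with NaCl, and 24.6% and 13% against untreated. For NaCl against untreated, 11.6% of the bright clusters were higher and 10.3% lower, beside 10.1% and 0% of the bright subunits. The median log2 difference of the subunits was 0.017 for L-lactate against NaCl, 0.020 for L-lactate against untreated and 0.0017 for NaCl against untreated, where the medians over all clusters were -0.011, -0.015 and 0.0016. The arrays of the groups did not overlap for 17, 25 and 11 subunit clusters, beside 19.1%, 22.4% and 11% of all clusters. These are 22.7%, 33.3% and 14.7% of the members. Among bright clusters the shares without overlap were 37.8%, 43.2% and 20.9%, and among bright subunits 24.6%, 36.2% and 15.9%. Comparisons that share a group are not independent of each other, and L-lactate arrays enter the first and second, NaCl arrays the first and last.

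**Figure D1:**
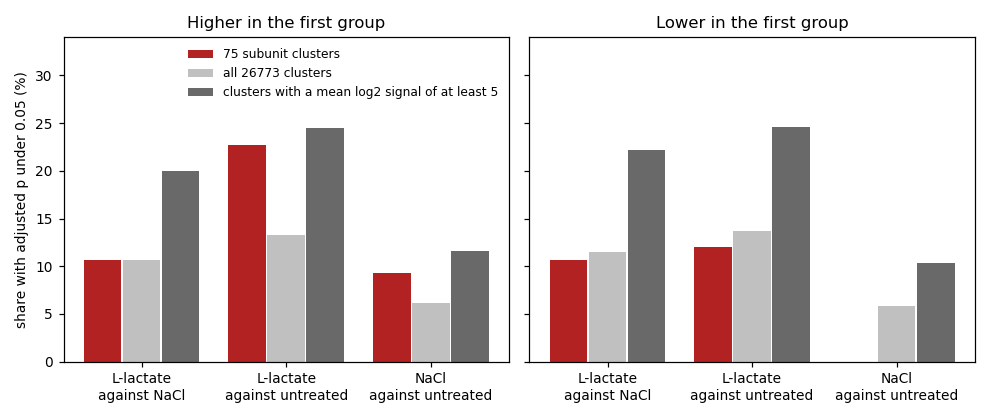
Share of clusters (y axis, %) with an adjusted p under 0.05 in each comparison (x axis), higher on the left and lower on the right, for the 75 subunit clusters, all 26773 clusters and the clusters with a mean log2 signal of at least 5. The subunit bars stand at 10.7% in both panels for L-lactate against NaCl, at 22.7% and 12% for L-lactate against untreated, and at 9.33% and 0% for NaCl against untreated.

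Averaged over a complex, the subunits moved by less than 0.1 on the log2 scale in every array. For each array, the deviation of every cluster from its mean over the 15 arrays was averaged. Over all subunits this deviation was 0.0062 ± 0.0081 (SD, n = 5) with L-lactate, 0.0045 ± 0.023 with NaCl and -0.011 ± 0.012 in untreated samples, and the groups overlapped. Complex II stood lowest with L-lactate at -0.066 ± 0.028, against 0.042 ± 0.018 with NaCl and 0.025 ± 0.0065 in untreated samples. Its L-lactate arrays reached from -0.093 to -0.023, below all arrays of the other groups. Complex V was at 0.026 ± 0.010 with L-lactate, -0.014 ± 0.015 with NaCl and -0.012 ± 0.0050 in untreated samples, and its L-lactate arrays, from 0.016 to 0.039, lay above the rest. Complexes I, III and IV gave group means between -0.021 and 0.015, with overlapping arrays.

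**Figure D2:**
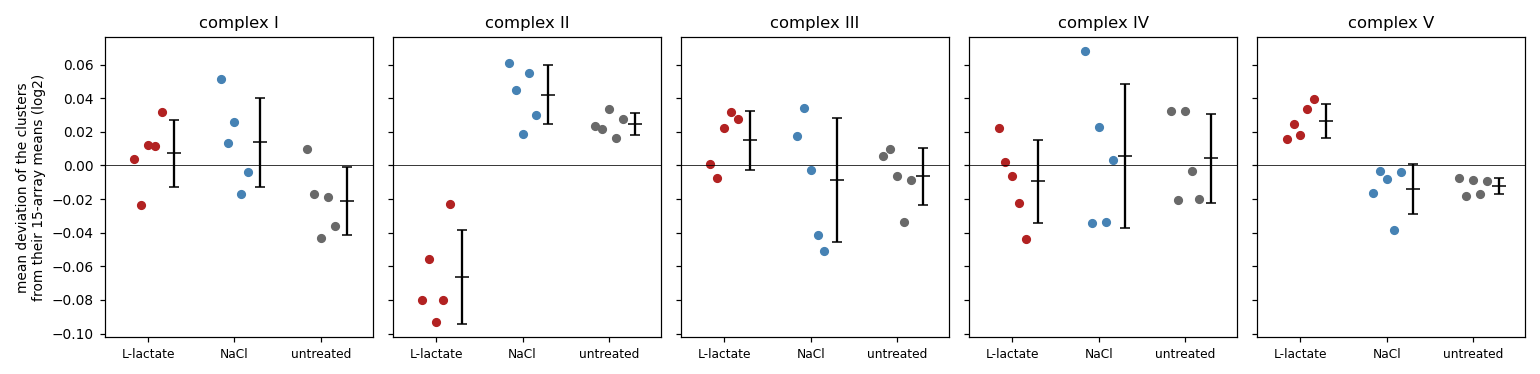
Mean deviation of the clusters of each complex from their means over the 15 arrays (y axis, log2), 1 point per array, for the L-lactate, NaCl and untreated groups (x axis), with the group mean and SD (n = 5). The 5 L-lactate points lie lowest for complex II, between -0.093 and -0.023, and highest for complex V, between 0.016 and 0.039.

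**Figure D3:**
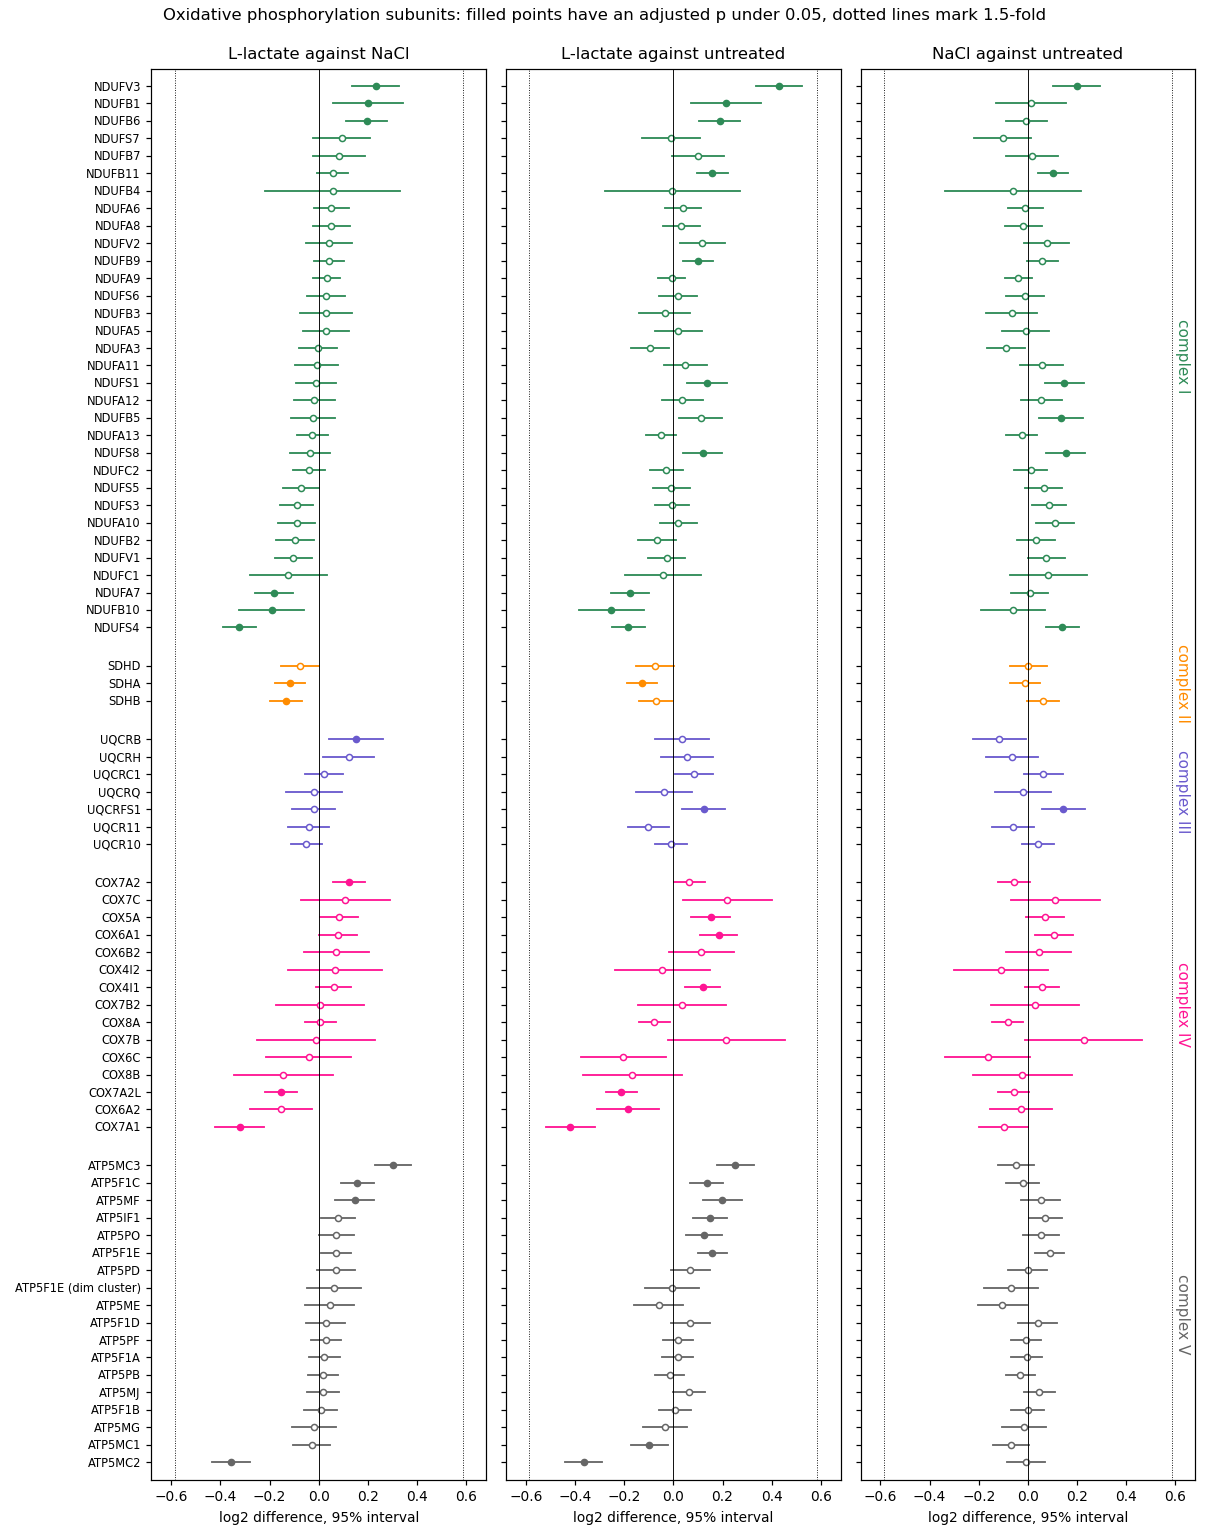
Log2 difference (x axis) of each of the 75 subunit clusters (rows, ordered within each complex by the difference between L-lactate and NaCl) with its 95% interval, in the 3 comparisons. Filled points have an adjusted p under 0.05, and every interval lies inside the dotted lines at 1.5-fold. ATP5MC3 and ATP5MC2 lie at the top and the bottom of complex V, at 0.30 and -0.36 between L-lactate and NaCl.

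Complex I, which oxidizes NADH, consists of an arm in the matrix that takes up the electrons and an arm in the membrane that pumps protons. With L-lactate, 3 of its 32 subunits were higher and 3 lower than with NaCl, and 7 were higher and 3 lower than in untreated samples. With NaCl, 6 were higher and 0 lower than in untreated samples, and at an unadjusted limma p under 0.05 the counts were 8 and 1. In the order of the comparisons these calls are 9.38% higher and 9.38% lower, 21.9% and 9.38%, and 18.8% and 0% of the members, beside 10.7% and 11.5%, 13.3% and 13.7%, and 6.13% and 5.81% of all clusters. Among bright clusters the shares were 20% and 22.2%, 24.5% and 24.6%, and 11.6% and 10.3%. The median log2 differences were -0.0055, 0.020 and 0.025. Members with differences in opposite directions stood in both arms: 1 of 14 matrix arm subunits was higher and 2 were lower between L-lactate and NaCl, as were 2 and 1 of 18 membrane arm subunits.

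NDUFV3, a small accessory subunit of the NADH-binding module, had the largest increase of complex I. Its log2 signal was 8.27, 8.34, 8.17, 8.24 and 8.34 in the L-lactate arrays, 8.04, 7.96, 7.98, 8.06 and 8.15 in the NaCl arrays, and 7.79, 7.87, 7.78, 7.87 and 7.89 in the untreated arrays. The 3 groups were fully separated, with NaCl in the middle. The log2 difference was 0.23 (SE 0.044, adjusted p = 0.00117) between L-lactate and NaCl, 0.43 (adjusted p = 2.52e-06) between L-lactate and untreated, and 0.20 (adjusted p = 0.00734) between NaCl and untreated. The exact two-sided permutation test over samples gave p = 0.00794 for each pair, the smallest value that 5 against 5 arrays allow and the one that every pair of non-overlapping groups receives.

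NDUFS4, an accessory subunit of the matrix arm whose loss causes Leigh syndrome in humans, was ordered differently. The L-lactate arrays gave 9.44, 9.45, 9.51, 9.46 and 9.47, the NaCl arrays 9.81, 9.79, 9.79, 9.78 and 9.78, and the untreated arrays 9.70, 9.63, 9.69, 9.67 and 9.56. The groups were again fully separated, and the untreated samples lay between the others. NDUFS4 was 1.25-fold lower with L-lactate than with NaCl (log2 difference -0.32, SE 0.031, adjusted p = 1.88e-06) and 1.14-fold lower than in untreated samples (adjusted p = 3.22e-04). It was 1.10-fold higher with NaCl than in untreated samples (adjusted p = 0.00716). NDUFV3 and NDUFS4 were the 2 members whose groups were apart in all 3 comparisons. The share of all clusters that were apart in all 3 was not determined. Whether this count is unusual therefore cannot be said.

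NDUFB10, an accessory subunit of the membrane arm, gave log2 signals of 6.98, 6.96, 7.00, 6.96 and 7.00 with L-lactate, 7.32, 7.17, 7.19, 7.15 and 7.02 with NaCl, and 7.40, 7.10, 7.24, 7.32 and 7.11 in untreated samples. All L-lactate arrays lay below the others, and the spread among them was the smallest of the 3 groups. The log2 difference was -0.19 (adjusted p = 0.0348) against NaCl and -0.25 (adjusted p = 0.00558) against untreated. The first was lost when any of 9 arrays was left out, with adjusted p-values up to 0.0906 (without NaCl replicate 1).

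Complex I had further calls in both arms. NDUFA7, in the matrix arm, was lower with L-lactate by log2 differences of -0.18 against both NaCl and untreated (adjusted p = 0.00143 and 0.0015), and NDUFB6, in the membrane arm, was higher by 0.20 and 0.19 (adjusted p = 0.00159 and 0.00165), with no overlap of its arrays. NDUFB1 was also higher, by 0.20 and 0.22 (adjusted p = 0.0417 and 0.0246), with overlapping arrays. These NDUFB1 calls were lost when any of 10 and any of 4 arrays, respectively, was left out, with adjusted p-values up to 0.107 (without L-lactate replicate 3) and 0.0679 (without untreated replicate 3). NDUFB9 was higher with L-lactate than in untreated samples by 0.10 (adjusted p = 0.017).

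The subunits that were higher with NaCl than without it were, beside NDUFV3 and NDUFS4, the iron-sulphur core subunits NDUFS1 and NDUFS8 and the membrane arm subunits NDUFB11 and NDUFB5. NDUFS1 was higher by 0.15 (adjusted p = 0.0162) and NDUFS8 by 0.15 (adjusted p = 0.0138). With L-lactate, NDUFS1 and NDUFS8 were higher than in untreated samples by 0.14 and 0.12 (adjusted p = 0.0119 and 0.0283), and their log2 differences from NaCl were -0.011 and -0.035 (adjusted p = 0.892 and 0.614). NDUFB11 was higher than in untreated samples by 0.10 with NaCl (adjusted p = 0.0346) and by 0.16 with L-lactate (adjusted p = 7e-04). NDUFB5 was higher with NaCl by 0.13 (adjusted p = 0.0472). The NDUFS8 call for L-lactate was lost without any of 4 arrays (adjusted p up to 0.074, without untreated replicate 1). Those of NDUFB11 and NDUFB5 for NaCl were lost without any of 8 and any of 12 arrays, with adjusted p-values up to 0.0852 and 0.117, both without NaCl replicate 3.

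Complex II, succinate dehydrogenase, belongs both to the citric acid cycle and to the respiratory chain and is encoded in the nucleus alone. The measured members were SDHA, the flavoprotein that oxidizes succinate, SDHB, the iron-sulphur protein, and the membrane anchor SDHD. SDHC was measured only by a cluster with several symbols. SDHA gave 9.31, 9.34, 9.32, 9.34 and 9.32 with L-lactate, 9.43, 9.45, 9.42, 9.51 and 9.38 with NaCl, and 9.42, 9.44, 9.48, 9.48 and 9.43 in untreated samples. The 5 L-lactate arrays were the lowest of the 15. The log2 difference was -0.12 (SE 0.029, adjusted p = 0.00783) against NaCl and -0.13 (adjusted p = 0.0033) against untreated.

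SDHB gave 9.99, 9.95, 9.98, 10.01 and 10.07 with L-lactate, 10.19, 10.07, 10.13, 10.14 and 10.13 with NaCl, and 10.07, 10.09, 10.07, 10.05 and 10.07 in untreated samples. The highest L-lactate array stayed just under the lowest NaCl array and overlapped with the untreated ones. The log2 difference was -0.13 (adjusted p = 0.00491) against NaCl and -0.072 (adjusted p = 0.107) against untreated. SDHD gave 8.59, 8.67, 8.54, 8.53 and 8.66 with L-lactate, 8.68, 8.73, 8.62, 8.64 and 8.69 with NaCl, and 8.70, 8.65, 8.67, 8.63 and 8.70 in untreated samples. Its groups overlapped, and the log2 difference between L-lactate and NaCl was -0.075, with a 95% interval from -0.15 to 0.0013 and an adjusted p of 0.169. No member of complex II was called between NaCl and untreated.

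Complex III, the cytochrome bc1 complex, had 1 call in each comparison among its 7 measured subunits, all towards higher values. This is 14.3% each time. In the order of the comparisons, 10.7%, 13.3% and 6.13% of all clusters were higher, and 20%, 24.5% and 11.6% of bright clusters. UQCRB, a small subunit close to the ubiquinone site, gave 8.07, 8.02, 8.20, 8.10 and 7.99 with L-lactate, 7.94, 7.97, 7.98, 7.93 and 7.79 with NaCl, and 8.08, 8.14, 8.04, 7.93 and 8.00 in untreated samples. The L-lactate arrays lay above the NaCl arrays, and the untreated arrays overlapped with both. The log2 difference between L-lactate and NaCl was 0.15 (adjusted p = 0.0465), a call that was lost when any of 10 arrays was left out, with adjusted p-values up to 0.121 (without L-lactate replicate 3).

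UQCRFS1, the Rieske iron-sulphur protein, gave 6.69, 6.73, 6.59, 6.63 and 6.67 with L-lactate, 6.62, 6.67, 6.77, 6.70 and 6.64 with NaCl, and 6.48, 6.61, 6.48, 6.51 and 6.60 in untreated samples. The untreated arrays lay below all NaCl arrays and overlapped slightly with the L-lactate arrays. The log2 difference from untreated was 0.12 (adjusted p = 0.035) with L-lactate and 0.14 (adjusted p = 0.0317) with NaCl. Each of these calls was lost without any of 6 arrays, with adjusted p-values up to 0.0894 (without L-lactate replicate 2) and 0.0876 (without NaCl replicate 3). The core protein UQCRC1 and the small subunits UQCRH, UQCRQ, UQCR10 and UQCR11 had no call in any comparison, with log2 differences between -0.10 and 0.12.

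Complex IV, cytochrome c oxidase, was measured by 8 widely expressed subunits, 6 isoforms that are typical of other tissues and COX7A2L, which joins complexes III and IV into supercomplexes. Of these 15 members, 1 was higher and 2 lower with L-lactate than with NaCl, 6.67% and 13.3% beside 10.7% and 11.5% of all clusters. Against untreated, 3 were higher and 3 lower with L-lactate, 20% each way beside 13.3% and 13.7%. None was called between NaCl and untreated. Among bright clusters the shares for L-lactate were 20% and 22.2%, and 24.5% and 24.6%. The clearest difference of complex IV was in COX7A1, the isoform of heart and skeletal muscle. COX7A1 gave 6.56, 6.45, 6.60, 6.60 and 6.43 with L-lactate, 6.97, 6.81, 6.84, 6.78 and 6.85 with NaCl, and 6.97, 6.91, 6.95, 7.02 and 6.88 in untreated samples. No L-lactate array reached the other groups, which overlapped with each other. COX7A1 was 1.25-fold lower with L-lactate than with NaCl (log2 difference -0.32, SE 0.047, adjusted p = 1.03e-04) and 1.34-fold lower than in untreated samples (-0.42, adjusted p = 5.29e-06). Between NaCl and untreated the log2 difference was -0.098 (adjusted p = 0.221).

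COX7A2, the widely expressed counterpart of COX7A1, gave 9.63, 9.65, 9.57, 9.65 and 9.65 with L-lactate, 9.56, 9.49, 9.54, 9.46 and 9.48 with NaCl, and 9.57, 9.54, 9.57, 9.60 and 9.54 in untreated samples. The L-lactate arrays lay above the NaCl arrays. The log2 difference was 0.12 (SE 0.030, adjusted p = 0.00699) against NaCl and 0.065 (adjusted p = 0.132) against untreated. COX7A2L was lower with L-lactate, by log2 differences of -0.15 (adjusted p = 0.00131) against NaCl and -0.21 (adjusted p = 5.82e-05) against untreated. Its L-lactate arrays, from 9.55 to 9.60, lay below the lowest array of the other groups at 9.70.

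Against the untreated samples, 3 widely expressed subunits were higher with L-lactate, COX6A1, COX5A and COX4I1. COX6A1 gave 9.93, 9.88, 9.93, 10.02 and 9.99 with L-lactate, 9.92, 9.88, 9.89, 9.80 and 9.86 with NaCl, and 9.75, 9.74, 9.71, 9.82 and 9.80 in untreated samples. The NaCl arrays were in between and overlapped with both other groups. The log2 difference between L-lactate and untreated was 0.18 (adjusted p = 0.00107). COX4I1 gave 8.55, 8.60, 8.54, 8.63 and 8.69 with L-lactate, 8.55, 8.56, 8.57, 8.53 and 8.50 with NaCl, and 8.51, 8.50, 8.44, 8.48 and 8.49 in untreated samples. Again the L-lactate arrays lay above the untreated ones, with a log2 difference of 0.12 (adjusted p = 0.0132), and NaCl overlapped with both. COX5A, which with COX4 forms an early part of the assembling enzyme, was higher by 0.15 (adjusted p = 0.00508). Over the 8 widely expressed subunits the median log2 difference from untreated was 0.14 with L-lactate and 0.063 with NaCl, and 5 and 8 of them were not called. Over all 15 members of complex IV these medians were 0.034 and -0.023, and over all clusters -0.015 and 0.0016.

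COX8A, a widely expressed subunit without a call, gave 10.51, 10.47, 10.43, 10.46 and 10.47 with L-lactate, 10.47, 10.48, 10.48, 10.46 and 10.41 with NaCl, and 10.50, 10.61, 10.53, 10.55 and 10.53 in untreated samples. Its log2 difference between L-lactate and NaCl was 0.0057, with a 95% interval from -0.057 to 0.068. The log2 differences from untreated were -0.077 with L-lactate (adjusted p = 0.0671) and -0.083 with NaCl (adjusted p = 0.088), and all NaCl arrays lay below the lowest untreated array. These passed the threshold under 3 and 2 alternative settings, with the lowest adjusted p at 0.0106 and 0.0137, both with the intensity trend and robust variance prior. COX6C and COX7B had wider spreads, and COX7B lay at 5.43 in untreated replicate 4 against 5.81 to 6.18 in the other untreated arrays.

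The muscle isoform COX6A2 gave 6.29, 6.27, 6.35, 6.20 and 6.10 with L-lactate, 6.45, 6.30, 6.35, 6.50 and 6.41 with NaCl, and 6.34, 6.37, 6.60, 6.46 and 6.38 in untreated samples. The groups touched, and the log2 difference was -0.18 (adjusted p = 0.0292) between L-lactate and untreated and -0.15 (adjusted p = 0.0784) between L-lactate and NaCl. The former was lost when any of 4 arrays was left out, with adjusted p-values up to 0.0803 (without L-lactate replicate 5).

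The remaining isoforms were dim and had no call. COX4I2, known from lung and from the response to low oxygen, gave 4.29, 4.53, 4.30, 4.38 and 4.03 with L-lactate, 4.45, 4.12, 4.07, 4.24 and 4.31 with NaCl, and 4.22, 4.28, 4.35, 4.50 and 4.39 in untreated samples. COX6B2, the testis isoform, gave 4.24, 4.23, 4.21, 4.22 and 4.24 with L-lactate, 4.29, 4.08, 4.10, 4.13 and 4.19 with NaCl, and 4.22, 4.01, 4.26, 3.90 and 4.17 in untreated samples. COX8B, a muscle isoform, gave 3.31, 3.37, 3.13, 3.06 and 3.31 with L-lactate, 3.31, 3.31, 3.31, 3.23 and 3.73 with NaCl, and 3.49, 3.22, 3.47, 3.52 and 3.31 in untreated samples. The groups overlapped for all of them. COX7B2, also without a call, stayed between 1.76 and 2.17 over all arrays. Detection calls were not analysed here, so it cannot be said whether these signals lie above background. Together with NDUFB4, COX6C and COX7B2 they make up the 6 members with a mean log2 signal under 5.

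**Figure D4:**
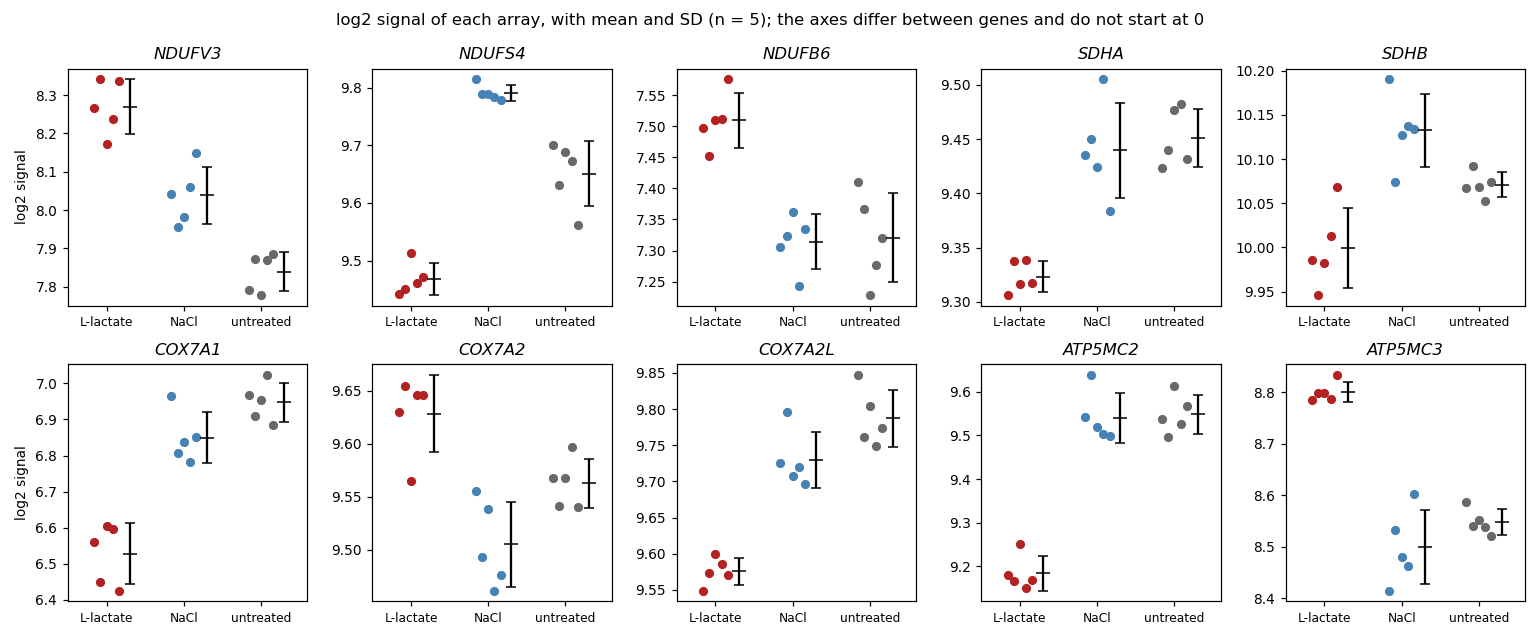
Log2 signal (y axis, a separate scale for each gene that does not start at 0) of each array in the L-lactate, NaCl and untreated groups (x axis), with the group mean and SD (n = 5), for 10 subunits. NDUFV3 and NDUFS4 show 3 separate groups, with L-lactate highest for NDUFV3 at 8.17 to 8.34 and lowest for NDUFS4 at 9.44 to 9.51, and the L-lactate points of ATP5MC2 and ATP5MC3 lie on opposite sides of the controls.

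Complex V, the ATP synthase, consists of the catalytic F1 head, a peripheral stalk and a membrane part with a ring of c subunits that the proton flow turns. With L-lactate, 3 of its 18 clusters were higher and 1 was lower than with NaCl, and 6 were higher and 2 lower than in untreated samples. None was called between NaCl and untreated, where 2 had a higher and 1 a lower value at an unadjusted limma p under 0.05. The calls are 16.7% higher and 5.56% lower against NaCl and 33.3% and 11.1% against untreated. Over all clusters the shares were 10.7% and 11.5%, and 13.3% and 13.7%, and over bright clusters 20% and 22.2%, and 24.5% and 24.6%. The genes ATP5MC1, ATP5MC2 and ATP5MC3 all encode the c subunit and are known to give the same mature protein from precursors with different import sequences. These genes differed in their direction.

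ATP5MC2 gave 9.18, 9.17, 9.25, 9.15 and 9.17 with L-lactate, 9.54, 9.64, 9.52, 9.50 and 9.50 with NaCl, and 9.54, 9.50, 9.61, 9.53 and 9.57 in untreated samples. The L-lactate arrays were far below the others, which overlapped. ATP5MC2 was 1.28-fold lower than with NaCl (log2 difference -0.36, SE 0.036, adjusted p = 2.71e-06) and 1.29-fold lower than in untreated samples (-0.36, adjusted p = 1.46e-06). ATP5MC3 gave 8.78, 8.80, 8.80, 8.79 and 8.83 with L-lactate, 8.42, 8.53, 8.48, 8.46 and 8.60 with NaCl, and 8.59, 8.54, 8.55, 8.54 and 8.52 in untreated samples. Here all L-lactate arrays were above the others. ATP5MC3 was 1.23-fold higher than with NaCl (0.30, SE 0.035, adjusted p = 1.12e-05) and 1.19-fold higher than in untreated samples (0.25, adjusted p = 4.32e-05).

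The third c subunit gene, ATP5MC1, had a log2 difference of -0.029 between L-lactate and NaCl (adjusted p = 0.652). Against untreated it was -0.097 (adjusted p = 0.0493), a call that was lost when any of 11 arrays was left out, with adjusted p-values up to 0.123 (without L-lactate replicate 2). The log2 differences between NaCl and untreated were -0.0077 for ATP5MC2, -0.049 for ATP5MC3 and -0.068 for ATP5MC1, all without a call.

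In the F1 head, ATP5F1C, the subunit of the rotating central stalk, was higher with L-lactate by 0.16 against NaCl (adjusted p = 0.00182) and 0.14 against untreated (adjusted p = 0.00432). The brighter cluster of ATP5F1E, another part of the central stalk, was higher than in untreated samples by 0.16 (adjusted p = 4.6e-04), while its dim cluster gave a difference of -0.0042 (adjusted p = 0.968), so that the clusters of this gene disagreed. The subunits that bind nucleotides, ATP5F1A and ATP5F1B, had log2 differences of 0.023 and 0.0084 between L-lactate and NaCl, with 95% intervals from -0.041 to 0.086 and from -0.058 to 0.075. In the membrane part ATP5MF was higher with L-lactate, by 0.15 against NaCl (adjusted p = 0.00864) and 0.20 against untreated (adjusted p = 7.18e-04). Of the peripheral stalk, ATP5PO was higher than in untreated samples by 0.13 (adjusted p = 0.011). ATP5IF1, which blocks the hydrolysis of ATP by the enzyme, was higher by 0.15 (adjusted p = 0.00203).

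Genes that work beside the subunits were taken from lists that the symbol rule did not use. Of 8 carriers and related subunits, 3 were higher and 2 lower with L-lactate than with NaCl, 37.5% and 25% beside 10.7% and 11.5% of all clusters. CYCS, the gene of cytochrome c, gave 7.00, 6.96, 6.99, 6.94 and 6.98 with L-lactate, 6.57, 6.68, 6.61, 6.58 and 6.52 with NaCl, and 6.74, 6.61, 6.50, 6.68 and 6.74 in untreated samples. It was thus higher with L-lactate in every array, by 0.38 against NaCl (SE 0.046, adjusted p = 1.88e-05) and 0.32 against untreated (adjusted p = 7.16e-05). NDUFA4L2, a paralogue of NDUFA4 that is induced by low oxygen, had the largest difference of the list, with log2 differences of 2.25 between L-lactate and NaCl, 1.01 between L-lactate and untreated and -1.25 between NaCl and untreated (adjusted p = 4.78e-08, 1.16e-04 and 5.05e-05). ETFDH, which passes electrons from fatty acid oxidation to ubiquinone, had a log2 difference of -0.15 between L-lactate and NaCl (adjusted p = 0.00299) and of 0.15 between NaCl and untreated (adjusted p = 0.00765).

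Among 47 assembly factors of the complexes, 3 were higher and 10 lower with L-lactate than with NaCl, 4 higher and 9 lower than in untreated samples, and 2 higher and 1 lower with NaCl than in untreated samples. These are 6.38% and 21.3%, 8.51% and 19.1%, and 4.26% and 2.13% of the list, beside 10.7% and 11.5%, 13.3% and 13.7%, and 6.13% and 5.81% of all clusters. Of bright clusters, 22.2% and 24.6% were lower with L-lactate than with NaCl and untreated. The median log2 differences were -0.056, -0.013 and 0.020. COX20 and COX19, which help to mature complex IV, had log2 differences of -0.37 and -0.24 between L-lactate and NaCl (adjusted p = 1.55e-05 and 0.00853), as had COA4 with -0.33 (adjusted p = 2.94e-06). COX16, another complex IV factor, was higher by 0.27 (adjusted p = 6.73e-04) and had a log2 difference of -0.34 between NaCl and untreated (adjusted p = 2.57e-04). TMEM70, an assembly factor of complex V, was higher with NaCl than in untreated samples by 0.28 (adjusted p = 2.11e-04).

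The regulators of mitochondrial biogenesis were represented by 18 clusters of 17 genes. With L-lactate, 1 was higher and 5 were lower than with NaCl, and 6 were lower than in untreated samples, where 1 had a higher and 7 a lower value at an unadjusted limma p under 0.05. The lower calls are 27.8% and 33.3% of the list, beside 11.5% and 13.7% of all clusters and 22.2% and 24.6% of bright clusters. MYC, a transcription factor with many targets in growth and mitochondria, had log2 differences of -1.24 between L-lactate and NaCl (adjusted p = 2.33e-09) and -1.17 between L-lactate and untreated (adjusted p = 2.91e-09). TFB2M, which starts transcription of mitochondrial DNA, was also lower in both, with -0.35 and -0.25 (adjusted p = 3.59e-05 and 6.12e-04). GABPB1, a partner of GABPA at promoters of respiratory genes, had a log2 difference of -0.22 from NaCl (adjusted p = 0.00212). NRF1, an activator of many subunit genes, was called once, as higher with NaCl than without it by 0.16 (adjusted p = 0.0139). The coactivator PPARGC1A had log2 signals of 2.86 to 3.41 and no call.

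Markers of granulosa and other cells were set beside the label of the cells. By mean signal, the granulosa markers lay between percentile 41 (HSD17B1) and 99.9 (INHBA) of all clusters. The stromal markers LUM, DCN and PDGFRA lay at 99.9, 94.8 and 88.6, and the theca markers INSL3 and CYP17A1 at 80.5 and 40.6. The markers therefore do not settle how pure the cells were. The 9 granulosa markers were all measured, and 6 were lower and 0 higher with L-lactate than with NaCl. Against untreated, 5 were lower and 1 higher with L-lactate, and 1 lower and 5 higher with NaCl. In these comparisons 11.5%, 13.7% and 5.81% of all clusters were lower and 10.7%, 13.3% and 6.13% higher. Of bright clusters, 22.2%, 24.6% and 10.3% were lower and 20%, 24.5% and 11.6% higher. The sum of the granulosa log2 signals was 69.2 to 70.3 with L-lactate, 72.9 to 74.1 with NaCl and 71.7 to 72.6 in untreated samples. Of 3 stromal markers, 2 were called between L-lactate and NaCl, DCN at 0.48 and PDGFRA at 0.59 (limma, adjusted p = 8.13e-04 and 9.57e-07). The log2 differences of LUM from untreated were -0.117 with L-lactate and -0.118 with NaCl (adjusted p = 0.00515 and 0.0115). For PDGFRA these values were 0.86 and 0.28 (adjusted p = 1.15e-08 and 0.00243). For DCN they were 0.13 and -0.35 (adjusted p = 0.326 and 0.0161). The sum of the stromal log2 signals was 29.5 to 29.8 with L-lactate, 28.2 to 29.1 with NaCl and 28.5 to 29.0 in untreated samples. For leukocytes the sum of 3 markers was 12.4 to 12.9, 11.9 to 12.3 and 12.3 to 13.0, and for theca cells that of 2 markers was 10.3 to 11.6, 10.5 to 11.3 and 11.2 to 12.4. The theca marker INSL3 had log2 differences from untreated of -0.69 with L-lactate and -0.64 with NaCl (limma, adjusted p = 0.00153 and 0.00718), without overlap. Between L-lactate and NaCl its log2 difference was -0.057 (adjusted p = 0.851). The theca marker CYP17A1 had no call. The 4 endothelial clusters gave sums of 14.2 to 15.4 and the 3 oocyte markers of 8.90 to 9.92 over all arrays. The endothelial marker VWF was higher in each comparison, by 0.31, 0.57 and 0.25 (adjusted p = 6.61e-04, 1.59e-06 and 0.00666). It was the only endothelial marker with a call. Between L-lactate and NaCl, PECAM1 had a log2 difference of -0.098, and the clusters of CDH5 had -0.031 and -0.14. The macrophage marker CD68 had log2 differences of 0.44 between L-lactate and NaCl and -0.36 between NaCl and untreated (adjusted p = 5.99e-05 and 8.61e-04). The leukocyte markers PTPRC and CD3E had no call. Fewer cells of a type and less RNA per cell cannot be told apart in these bulk samples, and the part of the marker shifts in the subunit differences was not tested.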

How the data were processed

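The deposited values are log2 signals that the authors made from 15 arrays by background reduction, quantile normalization and RMA in the Affymetrix Expression Console (version 1.4.1.46), which can compress fold changes. They were used as deposited. The sample labels name a NucleoSpin kit for the RNA and the methods an RNeasy kit. Neither scanner files nor scan dates nor detection calls were used here, and the number of arrays limits the precision. Symbols come from the platform annotation (18457 clusters with 1 symbol, 688 with several, 7628 with none), and 75 of 75 members matched bovine RefSeq genes by ID. No coordinates or sequences are given, since the array's build is not given in the sources used here.

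Differences between groups were fitted with limma 3.58.1 in R 4.3.3, with a coefficient per group over all 15 arrays, no filter and no replicate block, and Benjamini-Hochberg adjustment over all 26773 clusters. Intervals are limma's at 95%. The exact permutation test covers 252 labellings and is two-sided. Every array's value is given for 19 subunits: the largest called increase and decrease of each complex in each comparison, any past 1.5-fold, the measured COX4I, COX6A, COX6B, COX7A and COX8 isoforms of complex IV, and the SDH genes. Of other lists, up to 4 members with the largest differences in a comparison were named, and PPARGC1A was added for its role. No cluster carried the symbol of a mitochondrially encoded subunit. Members and lists were chosen with earlier results of these data known. Same-numbered arrays of different groups had correlations of their deviations between -0.0653 and 0.0655 over all clusters, with 0 of 15 above 0.1, and between -0.346 and 0.481 over the 75 members, with 6 of 15 above 0.1, so the numbers were not taken as pairs. The fit was run on simulated data with independent noise in each array. Such data cannot show how the calls hold where replicates share a cell pool. Alternatives were the arrays of a comparison alone, the replicate block, an unmoderated linear model, another variance prior, array weights, 2 other scalings, a filter on dim clusters, 1 cluster per gene, and leaving out each array. Figures were drawn with matplotlib 3.10.9.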

Additional observations from a re-analysis of the deposited data

Results flagged for a closer look

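Among the subunits with all arrays given, 57 groups of 5 arrays were checked for an array far from the rest of its group, and 5 had one, where chance gives about 5% of groups. ATP5MC3 was 8.833 in L-lactate replicate 5, against 8.785 to 8.799 in the other L-lactate arrays, so that this array lay farther from the controls than the rest. COX7A2 was 9.565 in L-lactate replicate 3, against 9.629 to 9.654. NDUFS4 was 9.814 in NaCl replicate 1, against 9.779 to 9.789. UQCRB was 7.793 in NaCl replicate 5, against 7.934 to 7.978, and without this array its log2 difference between L-lactate and NaCl was 0.12 (limma, adjusted p = 0.116). COX8B, which had no call, was 3.734 in NaCl replicate 5, against 3.231 to 3.31.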

How the results depend on the processing

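No subunit passed 1.5-fold under any alternative, and no called difference of the 19 subunits changed its sign. For L-lactate against NaCl, the 8 lower clusters became 13 when only clusters with a mean of at least 5 were tested, and the median difference of 0.017 became 0.040 with cyclic loess. For L-lactate against untreated, the median of 0.020 became 0.045 with arrays centred on their medians. The count of 7 higher with NaCl than in untreated samples was the least stable: 3 with the arrays of the comparison alone, 4 with the replicate block, 11 with the intensity trend in the variance prior and 11 with the filter, and the count of 0 lower became 1 with that prior and 2 with the filter. The block moved no other count by over 1.5 times. Leaving out each array gave 6 to 8 higher and 7 to 9 lower with L-lactate than with NaCl, 15 to 18 and 7 to 11 than in untreated samples, and 4 to 7 and 0 to 1 for NaCl against untreated, where the 4 came without NaCl replicate 2 or NaCl replicate 3 and the 1 without untreated replicate 1. The medians ranged from 0.0076 to 0.023, from 0.0082 to 0.025 and from -0.0023 to 0.017. Calls kept whichever array was left out were 13 of 16, 21 of 26 and 4 of 7. The cause of these shifts was not tested.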

Other observations

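The proteins of the mitochondrial ribosome, which translates the subunits encoded in mitochondrial DNA, were measured by 77 clusters of 75 genes. With L-lactate, 12 were higher and 15 lower than with NaCl, and 25 were higher and 7 lower than in untreated samples. With NaCl, 11 were higher and 0 lower than in untreated samples (limma, adjusted p under 0.05), or 24 and 3 at an unadjusted p under 0.05. The calls are 15.6% and 19.5%, 32.5% and 9.09%, and 14.3% and 0% of the list. Over all clusters the shares were 10.7% and 11.5%, 13.3% and 13.7%, and 6.13% and 5.81%, and over clusters with a mean log2 signal of at least 5 they were 20% and 22.2%, 24.5% and 24.6%, and 11.6% and 10.3%. The median log2 differences were 0.0083, 0.064 and 0.052, where those over all clusters were -0.011, -0.015 and 0.0016. MRPS14 of the small ribosomal subunit was higher than in untreated samples by 0.61 with L-lactate (adjusted p = 8.78e-08) and by 0.37 with NaCl (adjusted p = 4.96e-05). MRPS6 was higher with NaCl than in untreated samples by 0.35 (adjusted p = 2.57e-06) and had a log2 difference of -0.28 between L-lactate and NaCl (adjusted p = 7.04e-06). MRPL54 and MRPL10 of the large subunit had log2 differences of -0.35 and -0.27 between L-lactate and NaCl (adjusted p = 7.47e-06 and 6.84e-06).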
